A study of Mus musculus with 4 samples.

Results

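The genes described here are 10 immediate early genes, chosen as a fixed list of symbols: Fos, Fosb, Fosl2, Jun, Junb, Jund, Atf3, Egr1, Ier2 and Nr4a1. Each symbol was found once in the gene list of the files, so the 10 members are 10 of 31053 gene identifiers. They were followed across 4 single-cell RNA libraries of mouse testis and across cell classes that were set by the counts of marker genes.

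Fos, Fosb and Fosl2 encode FOS family proteins, and Jun, Junb and Jund encode JUN family proteins. A dimer of a JUN protein with a FOS, JUN or ATF family protein forms AP-1, a transcription factor that binds short DNA elements in many promoters and enhancers. Immediate early genes are transcribed from factors already present in the cell, within minutes of growth factors, cytokines, stress or injury, and their mRNAs are short-lived. The same genes are known to respond to the enzymes and warming used to release cells from tissue. In the postnatal testis, Sertoli cells and the stromal cells around the tubules receive such signals, while germ cells pass from spermatogonia into meiosis.

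All 4 libraries came from mice labelled Acr-Gfp tg on a C57BL/6 background. Testes removed at 7 days postpartum (dpp) were cut up and kept as fragments (explants) on agarose for 2 days or 7 days, the groups drawn as 2-day culture and 7-day culture in the plots, in α-MEM with AlbuMAX under a PDMS ceiling chip, a silicone cover. The other libraries came from testes removed at 9 dpp and at 14 dpp without culture, so that culture time plus age at removal matched within each pair. Per the labels, cells of all groups were released with collagenase I and then trypsin, and the number of animals per library is not given. In the labels, the description of the library kit mentions the gonads of females, but germ-like, Sertoli-like and Leydig-like cells with testis markers were present in each library. Each group had 1 library, so no difference between groups has a replicate check, no test between groups was run, and culture and library cannot be told apart.

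After filtering, 23038 of 24851 cell barcodes were kept, from 4816 cells in 7-day explants to 6877 in 2-day explants. The median count of unique molecular identifiers (UMIs, 1 per captured mRNA molecule) per cell was 3606 in 2-day explants, 5578 in 7-day explants, 8544 at 9 dpp and 6447 at 14 dpp. Of the kept cells, 281 barcode sequences occurred in more than 1 library. Marker UMIs placed 2525 to 3717 cells per library in a germ-like class, 540 to 1173 in a Sertoli-like class, 1078 to 2476 in a stromal- or myoid-like class (called stromal-like below) and 55 to 71 in a Leydig-like class. Endothelial-like, pericyte-like and macrophage-like cells numbered 10 to 56 per library and were too few to compare. The highest level of any marker of T, NK or B cells or neutrophils was 5.71 counts per 1000000 UMIs (CPM), for Ighm at 9 dpp. The red cell gene Hbb-bs was at 0 to 134 CPM per library. Levels below are CPM of UMIs summed over the cells of a class. They count the 3′ ends of molecules and do not scale with gene length. Intervals are 95% intervals that cover counting error only.

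The promoters of the members were searched for short motifs, and none was found in all of them. RefSeq on GRCm38.p6 gave the 250 bases before the start of 8 of the 10 members, all but Egr1 and Ier2. The cAMP response element half-site, TGACG or CGTCA on the other strand, is the part of that element that CREB and ATF family proteins recognise. It lay in the windows of Fos, Fosb, Junb, Atf3 and Nr4a1, and in 17.8% of the 32851 promoters searched on both strands. The window of Nr4a1 held 4 such half-sites, as 0.137% of all promoters did with at least 4. The window of Fos held 2 of them, where 3.9% of all promoters had at least 2. Fos, Jun, Junb and Nr4a1 are printed below, 5′ to 3′ on the strand of the gene, because their values are described below and they differ in this element. Capitals mark the half-sites, the EGR site of Nr4a1 and, in Jun, the octamer TGACATCA.
Fos, chr12:85473640-85473889, plus strand: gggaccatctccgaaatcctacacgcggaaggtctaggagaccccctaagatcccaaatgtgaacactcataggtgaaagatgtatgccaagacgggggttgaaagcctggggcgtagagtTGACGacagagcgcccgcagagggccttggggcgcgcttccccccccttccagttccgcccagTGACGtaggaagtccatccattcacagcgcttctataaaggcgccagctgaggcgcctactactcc
Jun, chr4:95052223-95052472, minus strand: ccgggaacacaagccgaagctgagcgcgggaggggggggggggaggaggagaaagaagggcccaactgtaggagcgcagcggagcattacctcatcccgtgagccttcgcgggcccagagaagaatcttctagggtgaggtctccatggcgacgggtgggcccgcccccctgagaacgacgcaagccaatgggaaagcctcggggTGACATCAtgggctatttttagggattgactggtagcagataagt
Junb, chr8:84978749-84978998, minus strand: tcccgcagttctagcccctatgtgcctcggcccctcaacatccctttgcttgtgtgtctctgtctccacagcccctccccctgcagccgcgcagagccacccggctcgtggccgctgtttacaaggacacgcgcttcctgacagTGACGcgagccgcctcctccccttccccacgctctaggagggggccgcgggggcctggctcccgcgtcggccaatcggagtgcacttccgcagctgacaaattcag
Nr4a1, chr15:101266596-101266845, plus strand: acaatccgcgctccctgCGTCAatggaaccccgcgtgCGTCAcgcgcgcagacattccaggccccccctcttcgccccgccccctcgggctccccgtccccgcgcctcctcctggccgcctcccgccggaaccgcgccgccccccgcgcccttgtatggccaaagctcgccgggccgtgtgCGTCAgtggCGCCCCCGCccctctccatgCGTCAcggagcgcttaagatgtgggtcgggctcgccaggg

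The half-sites of Fos began at −129 and −66 from the start, and the nearer one is part of a textbook cAMP response element. The octamer of Jun began at −45 and is the proximal AP-1 or ATF site of that gene. Octamers of the form TGACNTCA were found in 7.49% of all promoters. Among the members, Jun was the single gene with one. Half-sites of Nr4a1 began at −233, −213, −69 and −40. The site bound by EGR proteins, GCGNGGGCG, was found in Fosb, Fosl2 and Nr4a1 and in 4.7% of all promoters. Neither the AP-1 heptamer TGANTCA, present in 6.75% of all promoters, nor the serum response element core known as the CArG box, present in 1.47%, lay in any of the 8 windows. The search ended 250 bases before the start, so elements farther upstream were not looked for, and Egr1 and Ier2 were not searched. The half-site of Atf3 began at −7. The windows of Atf3, Fosl2 and Nr4a1 lie inside the span of the gene in GENCODE M21, past the start of the gene drawn there. For Jund the RefSeq start lies upstream of the GENCODE start. The motifs were chosen after the sequences had been seen, and a match is a description of the letters.

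The comparison of each culture with its age-matched testis asks how cells in organ culture differ from cells in vivo. Over all cells, 7-day explants carried more mRNA of all 10 members than 14 dpp, and 2-day explants differed less from 9 dpp. In the 7-day pair 8 of 10 members were at least 2-fold higher in culture and none was 2-fold lower, where 3.6% of the 16616 genes tested were higher and 2.67% were lower by that much. Their median log2 ratio of CPM plus 1 was 2.02, against 0.00 for all genes. In the 2-day pair 1 of 10 members was 2-fold higher and none was 2-fold lower, where 4.19% of genes were higher and 3.41% lower. The median log2 ratio was 0.50 for the members and −0.12 for all genes. The sum of the 10 levels was 1469 CPM at 9 dpp, 840.1 at 14 dpp, 1969 in 2-day explants and 3121 in 7-day explants.

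Over all cells, most members were lower at the later age in vivo and higher at the later time in culture, an order that did not hold in every class. From 9 to 14 dpp, 3 of 10 members (Atf3, Egr1 and Ier2) were at least 2-fold lower and none was 2-fold higher, where 1.97% of genes were lower and 4.09% higher. All 10 log2 ratios were negative, with a median of −0.73 against −0.04 for all genes. From 2-day to 7-day explants, 3 of 10 members (Fos, Fosb and Atf3) were at least 2-fold higher and none was 2-fold lower, where 4.52% of genes were higher and 2.37% lower. The median was 0.51, against 0.07 for all genes, and Fosl2 was the member with a negative ratio, −0.57. With 10 in place of 1 added to the CPM, 1 member and not 3 was 2-fold higher. In germ-like cells 10 of 10 ratios were negative from 9 to 14 dpp (median −0.55, against −0.06 for all genes) and 9 of 10 from 2-day to 7-day explants (median −0.49, against −0.05). Held-out genes of other cells in germ-like cells had medians of −0.79 (Sertoli) and −0.67 (stromal) between the explants, and of 1.07 and −0.34 from 9 to 14 dpp. In stromal-like cells 7 of 10 and 10 of 10 were positive. These changes and the culture pairs use the same libraries, so they are not separate evidence. The mixture of cells also differed between libraries, with 17.4% stromal-like cells at 14 dpp and 30.9% in 7-day explants, so each member is given by class. Sertoli genes held out from the class markers had a median of −1.65 over all cells of the 7-day pair, and held-out stromal genes had 1.04. From 9 to 14 dpp held-out stromal genes had a median of −0.73, as the members did, and 3 of 7 were at least 2-fold lower. Held-out Sertoli and germ genes had 0.28 and 0.71 there. Stromal-like cells made up 29.1% of cells at 9 dpp. The part of the mixture in these ratios was not tested.

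**Figure D1:**
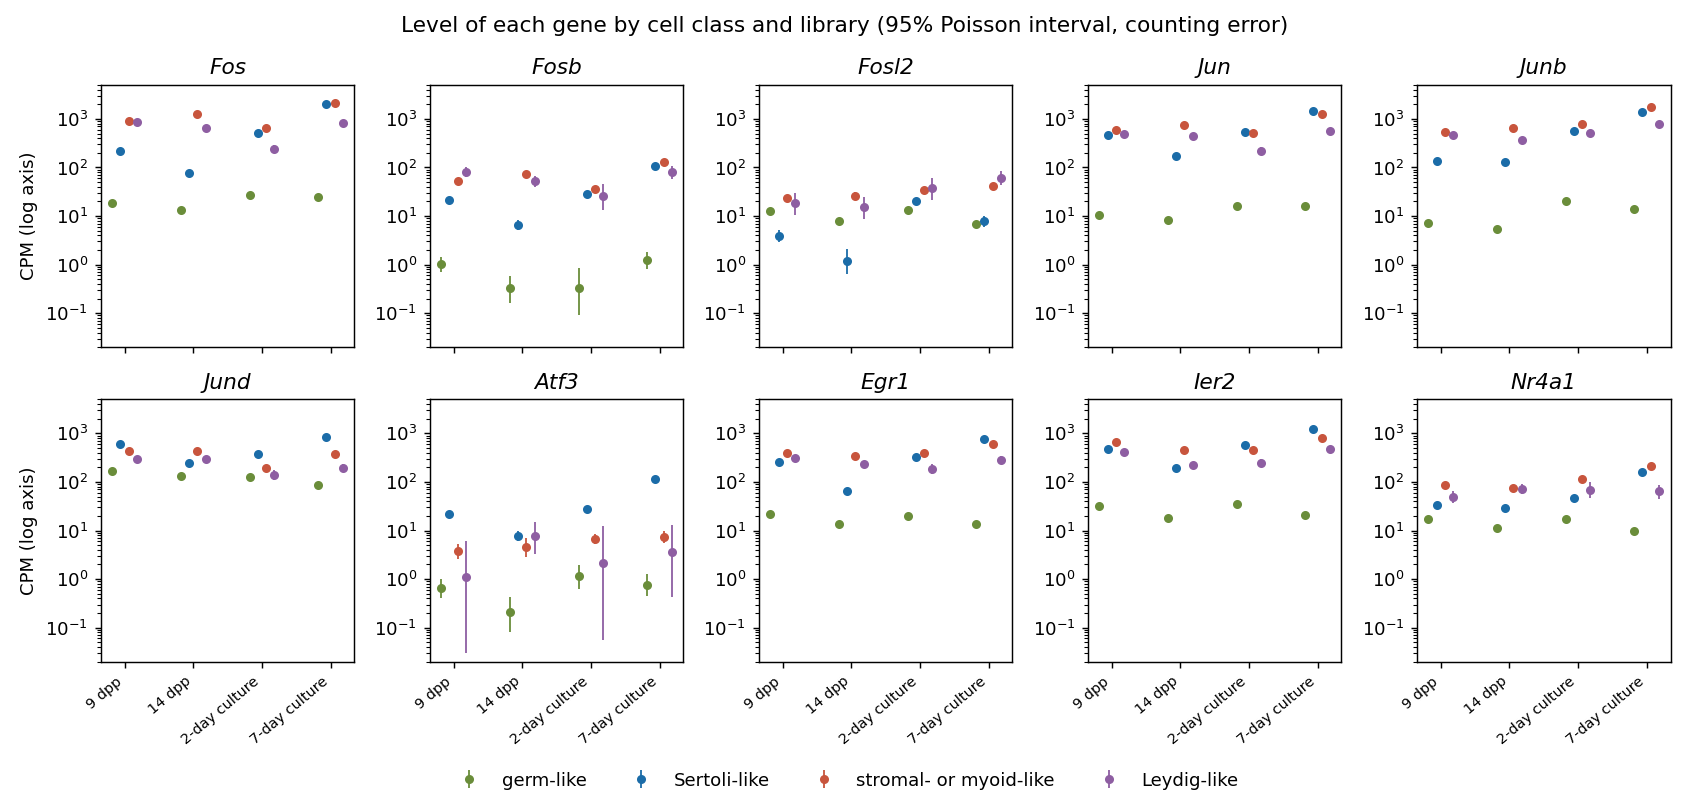
Level of each of the 10 genes (CPM, log axis) in 4 cell classes of 4 libraries, with 95% Poisson intervals for counting error. Germ-like cells lie lowest for Fos, Jun, Junb and Egr1, and Sertoli-like cells span the widest range for Fos, from 75.2 CPM at 14 dpp to 1993 CPM in 7-day explants.

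Among the FOS family, Fos was the most abundant in each of the 4 classes compared. Fos (ENSMUSG00000021250, GRCm38 chromosome 12, 85473890 to 85477273, plus strand) encodes the prototype AP-1 partner of JUN proteins. In all cells it was at 249.2 CPM (245 to 253) at 9 dpp, 177 (174 to 181) at 14 dpp, 355 (349 to 362) in 2-day explants and 800.3 (791 to 810) in 7-day explants. In Sertoli-like cells its level was 214 CPM at 9 dpp, 75.2 at 14 dpp, 503 in 2-day explants and 1993 in 7-day explants. In stromal-like cells it was 923 CPM at 9 dpp, 1275 at 14 dpp, 637 in 2-day explants and 2086 in 7-day explants. So Sertoli-like cells held far less Fos than stromal-like cells at 9 and 14 dpp, and nearly as much in 7-day explants.

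Fosb (ENSMUSG00000003545, chromosome 7, 19302696 to 19310051, minus strand) encodes a close relative of FOS and was far less abundant than Fos. Its Sertoli-like levels were 21.9 CPM at 9 dpp, 6.47 at 14 dpp, 28.9 in 2-day explants and 109 in 7-day explants. In stromal-like cells Fosb was at 51.8, 72.2, 35.5 and 126.9 CPM in the same order, which is the same order of libraries as for Fos in both classes. Fosl2 (ENSMUSG00000029135, chromosome 5, 32135801 to 32157842, plus strand) encodes FRA2, a FOS family protein that lacks the strong activation domains of FOS. Fosl2 ran against the others in Sertoli-like cells, with 20 CPM (16.8 to 23.6) in 2-day explants, 7.82 (5.84 to 10.3) in 7-day explants, 3.91 (2.98 to 5.05) at 9 dpp and 1.20 (0.640 to 2.06) at 14 dpp. It was higher in 2-day than in 7-day explants, where Fos and Fosb were lower.

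The classes that supplied Fosl2 differed from those of Fos. Germ-like cells held 54.1% of the Fosl2 UMIs at 9 dpp and 59.6% at 14 dpp, against 22.3% in 2-day and 25% in 7-day explants. For Fos, germ-like cells held 1.74% to 4.46% of the UMIs in any library. Stromal-like cells held 48.5% to 61.9% of the Fos UMIs in each library.

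**Figure D2:**
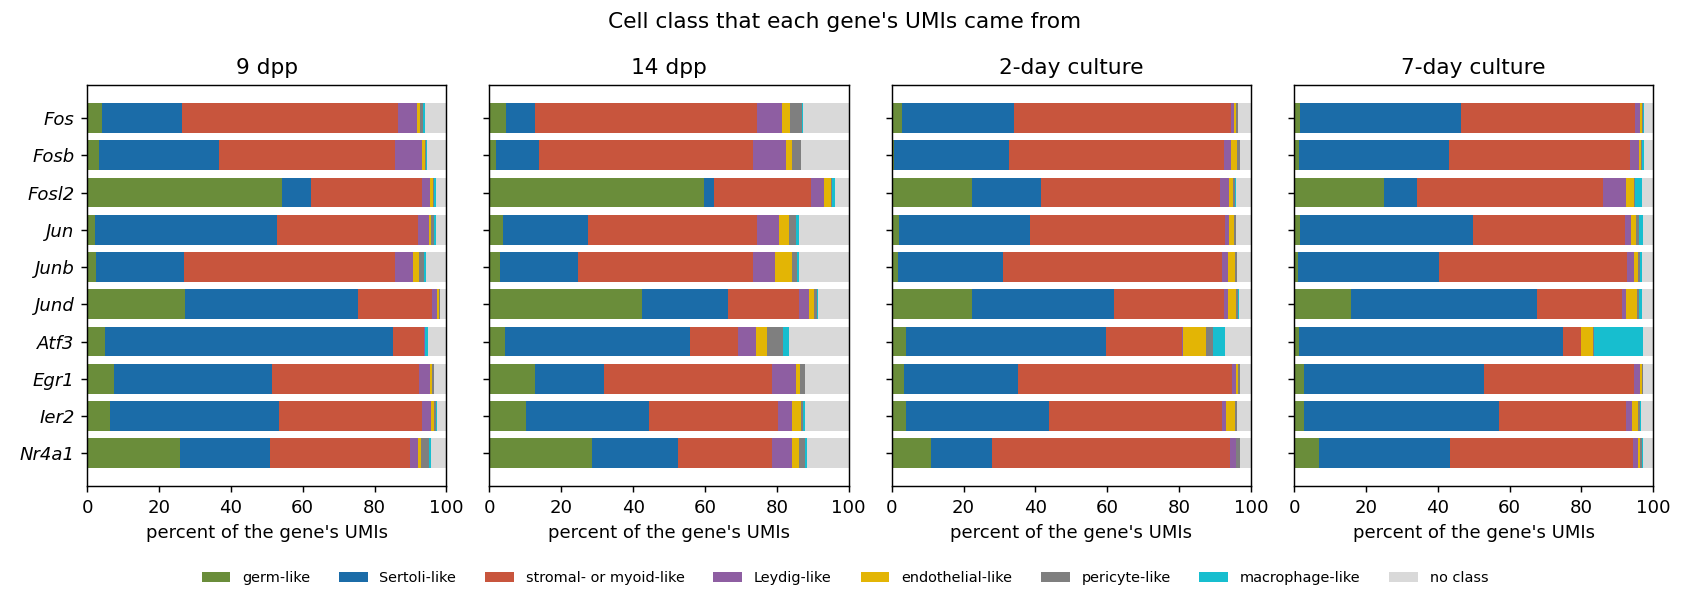
Percent of the UMIs of each gene that came from each cell class, 1 panel per library. Fosl2, Jund and Nr4a1 have the broadest germ-like segments, with 42.4% of the Jund UMIs at 14 dpp, and Atf3 is mostly Sertoli-like in each library.

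Among the JUN family, Jun kept the order of libraries seen for Fos, Junb was higher in culture in both pairs, and Jund did neither. Jun (ENSMUSG00000052684, chromosome 4, 95049034 to 95052222, minus strand) is a gene of 1 exon and encodes the JUN protein that pairs with FOS. Jun was at 472 CPM at 9 dpp, 170.2 at 14 dpp, 533 in 2-day explants and 1470 in 7-day explants in Sertoli-like cells. In stromal-like cells Jun was at 595 CPM at 9 dpp, 759 at 14 dpp, 517 in 2-day explants and 1238 in 7-day explants. In both classes 7-day explants had the highest Jun level of the 4 libraries.

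Junb (ENSMUSG00000052837, chromosome 8, 84974484 to 84978718, minus strand) encodes a JUN protein with weaker activation than JUN. It was the member that stood highest above 9 dpp in 2-day explants over all cells, with 428 CPM (421 to 435) against 147 (144 to 150.3). Sertoli-like cells had 138 CPM of Junb at 9 dpp, 128 at 14 dpp, 570.1 in 2-day explants and 1361 in 7-day explants. Stromal-like cells had 533, 640.5, 774 and 1764 CPM of Junb in that order, so culture was above in vivo in both pairs and both classes. Prdx2, on the other strand, overlaps Junb over 173 exon bases. Prdx2 was at 470.1 CPM at 9 dpp and 467 CPM in 2-day explants, and at 372 and 280.4 CPM at 14 dpp and in 7-day explants.

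Jund (ENSMUSG00000071076, chromosome 8, 70698949 to 70700616, plus strand) encodes a JUN protein known for steady presence in unstimulated cells. Over all cells it was the most abundant member at 9 and 14 dpp, with 332 CPM (327 to 336) and 192 CPM (188 to 196). It was at 212 CPM in 2-day explants and 296 CPM in 7-day explants. Jund was the single member with opposite signs in the culture pairs over all cells, with log2 ratios of −0.64 (−0.68 to −0.60) and 0.62 (0.59 to 0.66). In stromal-like cells Jund was at 424 CPM at 9 dpp and 438 at 14 dpp, above the 193 CPM of 2-day and the 376 CPM of 7-day explants. In Sertoli-like cells Jund was at 609 CPM at 9 dpp, 241 at 14 dpp, 382 in 2-day explants and 857 in 7-day explants, so this class had more Jund than stromal-like cells in every library but 14 dpp. An antisense gene, Gm11175, overlaps Jund over 877 exon bases and stayed below 1 CPM in each library, at most 0.674.

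Atf3 came from Sertoli-like cells more than from any other class. Atf3 (ENSMUSG00000026628, chromosome 1, 191170296 to 191218039, minus strand) encodes an ATF family protein that is induced by stress and pairs with JUN proteins. Sertoli-like cells held 80.2% of its UMIs at 9 dpp, 51.5% at 14 dpp, 55.6% in 2-day explants and 73.4% in 7-day explants. In them Atf3 was at 21.5 CPM (19.2 to 24) at 9 dpp, 7.76 (6.19 to 9.61) at 14 dpp, 27.4 (23.7 to 31.5) in 2-day explants and 117 (109 to 125) in 7-day explants. Stromal-like cells had 3.76 to 7.38 CPM of Atf3 in all 4 libraries, with intervals that overlapped in the 7-day pair and just missed each other in the 2-day pair (5.30 to 8.50 in culture, 2.62 to 5.22 at 9 dpp). In the few macrophage-like cells, too few to compare, Atf3 was at 138 CPM (12 UMIs) in 2-day explants, 217 CPM (142 UMIs) in 7-day explants, 10.4 CPM (3 UMIs) at 9 dpp and 8.85 CPM (3 UMIs) at 14 dpp.

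Egr1, Ier2 and Nr4a1 are not AP-1 subunits but are transcribed by the same kinds of signal. Egr1 (ENSMUSG00000038418) encodes a zinc finger transcription factor, and its position is not given here. In Sertoli-like cells Egr1 was at 262 CPM at 9 dpp, 63.9 at 14 dpp, 319 in 2-day explants and 764 in 7-day explants. In stromal-like cells it was at 395, 349, 389.6 and 612 CPM in that order, so the first 3 libraries named lay within a narrow range and 7-day explants above them. Ier2 (ENSMUSG00000053560, chromosome 8, 84661331 to 84662852, minus strand) is a gene of 1 exon and encodes a small nuclear protein. Its Sertoli-like levels were 482, 195, 578 and 1255 CPM, again with the lowest value at 14 dpp and the highest in 7-day explants. Stromal-like cells had 655, 459.8, 460.1 and 786 CPM of Ier2, with 14 dpp and 2-day explants level.

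Nr4a1 (ENSMUSG00000023034, chromosome 15, 101254269 to 101274795, plus strand) encodes NUR77, an orphan nuclear receptor that regulates steroidogenic genes. It was at 34.2 CPM at 9 dpp, 29.8 at 14 dpp, 45.8 in 2-day explants and 157 in 7-day explants in Sertoli-like cells. In stromal-like cells Nr4a1 was at 86.9 and 73.4 CPM at 9 and 14 dpp, and at 117 and 212 CPM in 2-day and 7-day explants. With Junb and Fosl2 it was thus higher in culture in both pairs in this class. Atf3 was so as well, with a 7-day interval of −0.04 to 1.24. After subtraction of RNA from other cells, estimated with the gene Ctsl, Atf3 had −0.49 and −2.36. That estimate was 46.8% and 36.3% of the library level in 2-day and 7-day explants, against 4.38% and 3.7% without Ctsl. In Leydig-like cells, the cells where NUR77 is known for steroidogenesis, Nr4a1 was at 49.9 to 70.9 CPM in the 4 libraries, with overlapping intervals.

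Sertoli-like cells, the cells that support germ cells inside the tubules, showed the widest difference between the libraries of the 7-day pair. There 10 of 10 members were at least 2-fold higher in 7-day explants, where 9.9% of the 12153 genes tested were higher and 7.09% lower by that much. The median log2 ratio was 3.25 for the members and 0.00 for all genes. Fos differed 26.5-fold (log2 ratio 4.71, interval 4.61 to 4.81), Fosb 16.9-fold, Atf3 15.1-fold (3.75, 3.45 to 4.05) and Egr1 12-fold (3.56, 3.45 to 3.67). Jund differed least, 3.55-fold (1.82, 1.76 to 1.89), and Nr4a1 differed 5.28-fold (2.36, 2.19 to 2.54). Fosl2 differed 6.51-fold, and its log2 ratio of 2.00 (1.40 to 2.54) is lowered by the 1 CPM added to its level of 1.20 CPM at 14 dpp.

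In the 2-day pair of Sertoli-like cells, 3 of 10 members (Fos, Fosl2 and Junb) were at least 2-fold higher in culture and none was 2-fold lower, where 6.43% of genes were higher and 6.26% lower. Their median was 0.36, against −0.11 for all genes. Log2 ratios were 1.23 (1.16 to 1.30) for Fos, 2.10 (1.71 to 2.48) for Fosl2 and 2.04 (1.97 to 2.12) for Junb. Jun, Egr1 and Ier2 had ratios of 0.17 to 0.28, and Jund was at −0.67. The members thus differed widely among themselves in the 2-day pair.

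In Sertoli-like cells most members were lower at the later age in vivo and higher at the later time in culture. From 9 to 14 dpp, 8 of 10 members were at least 2-fold lower and none was higher, where 7.83% of genes were lower and 4.91% higher, and the median was −1.35 against −0.12. Junb (−0.10) and Nr4a1 (−0.19) were the members that differed little. With 10 added to the CPM the count was 5 and not 8. In the same comparison and class, held-out stromal genes had a median of −1.40, with 4 of 6 at least 2-fold lower. Held-out germ genes had 0.82, with 3 of 6 at least 2-fold higher. The part of RNA from other cells in this fall was not tested. From 2-day to 7-day explants, 9 of 10 were at least 2-fold higher and Fosl2 was lower (−1.25), where 2.6% of genes were higher and 3.65% lower, and the median was 1.36 against −0.01. With 10 added Fosl2 was no longer past 2-fold. The comparison of 14 with 9 dpp and the 7-day pair share the 14 dpp library, and the comparison of the cultures shares a library with each pair.

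**Figure D3:**
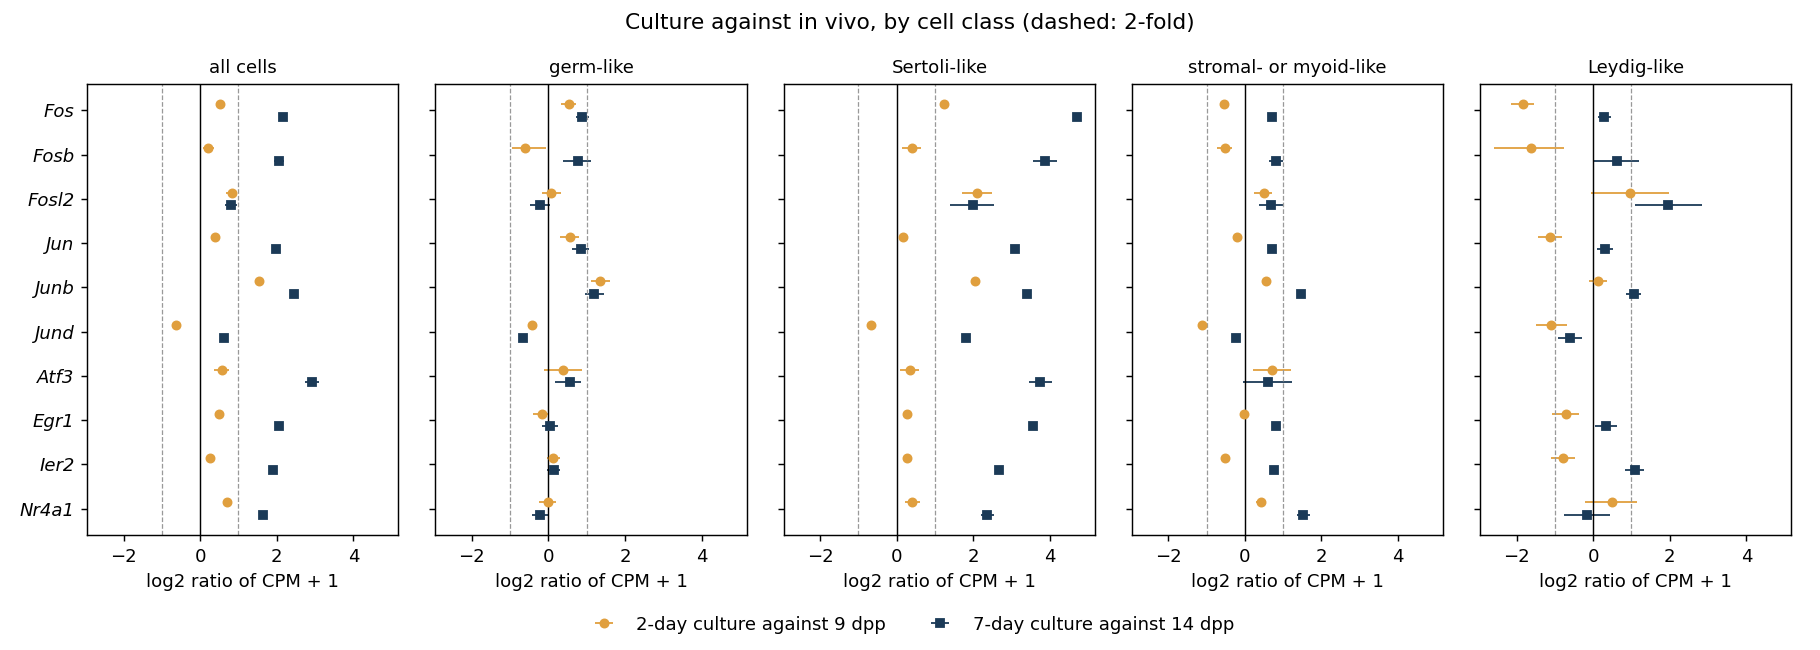
Log2 ratio of CPM plus 1 of each gene in 2-day explants against 9 dpp (circles) and 7-day explants against 14 dpp (squares), in all cells and 4 classes, with 95% intervals for counting error and dashed lines at 2-fold. All 10 squares of Sertoli-like cells lie beyond 2-fold, and the circles and squares of Fos, Fosb, Jun and Ier2 fall on opposite sides of 0 in stromal-like and Leydig-like cells.

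Depth and RNA of other cells were measured beside these Sertoli-like differences. The median UMI count of the class was 3416 in 2-day explants, 9302 in 7-day explants, 14101 at 9 dpp and 9401 at 14 dpp, so the libraries of the 7-day pair were nearly level. Among Sertoli-like cells with at least 5000 UMIs, Fos was at 493, 1938, 214 and 76.0 CPM in that order, and each count of members past 2-fold in this class was the same as without that minimum. Of 7 held-out Sertoli genes, 4 were at least 2-fold lower and 1 higher in the 7-day pair of this class, with a median of −1.22. Held-out germ genes had a median of −1.18 there, with 5 of 6 lower, and held-out stromal genes had 0.73, with 1 of 6 higher. The median mitochondrial share was 8.77% at 14 dpp and 4.40% to 6.09% in the other libraries, and its part in the result was not tested. Genes of stromal and germ cells that were held out from the class markers reached 20.5% of their library level in Sertoli-like cells at 14 dpp, 18.3% at 9 dpp, 10.1% in 2-day and 9.3% in 7-day explants. After that share of each library profile was subtracted, Fos was at 38.9, 167.9, 467 and 1919 CPM in that order of libraries.

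The Sertoli-like cells of different libraries fell into different clusters when cells were grouped without the members and the other listed genes. A cluster led by Myoz2, Scin and Ildr2 held 59.2% of the class in 2-day explants and 88.3% in 7-day explants, one led by Amh, Hsd17b1 and Hsd17b3 held 97.6% at 9 dpp, and one led by Tsx, Gm9112 and Gm3880 held 84.3% at 14 dpp. Within the Myoz2 cluster Fos was at 512 CPM in 694 cells of 2-day explants and at 1960 CPM in 477 cells of 7-day explants, and the sum of the members was 3077 and 7932 CPM. In the Tsx cluster at 14 dpp Fos was at 73.3 CPM and the sum was 974 CPM. A cluster led by Gm9112, Helt and Gm648 held 128 further cells of 14 dpp, with a sum of 578 CPM, and one led by Prr15, Hba-a1 and Reg3b held 473 cells of 2-day explants, with a sum of 2328 CPM.

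Stromal-like cells, which include the contractile cells around the tubules, had a smaller median ratio than Sertoli-like cells in both culture pairs. The difference between the classes was not tested. In the 7-day pair 2 of 10 members (Junb and Nr4a1) were at least 2-fold higher in culture and none was 2-fold lower, where 5.26% of the 12119 genes tested were higher and 4.31% lower. The median was 0.74, against −0.02 for all genes, and Jund was the single member with a negative ratio. In the 2-day pair no member was 2-fold higher and 1 of 10, Jund with −1.13 (−1.21 to −1.05), was 2-fold lower, where 5.99% of genes were higher and 7.06% lower. The median of the members, −0.11, was close to the −0.17 of all genes. With TMM factors, an alternative scaling, Jund was no longer past 2-fold. With each cell weighted equally, 4 members and not 2 were higher in the 7-day pair, and 1 and not 0 in the 2-day pair. Held-out Sertoli and germ genes stood at 46.8% and 36.3% of their library level in this class in 2-day and 7-day explants and at 13.7% and 14.7% at 9 and 14 dpp, or at 3.7% to 5.88% without Ctsl. After subtraction with Ctsl, 1 member was 2-fold lower in the 7-day pair, while without Ctsl both pairs kept the counts given here.

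Between 9 and 14 dpp no member differed 2-fold in this class, where 2.04% of genes were higher and 3% lower at 14 dpp. The median was 0.16, against −0.04 for all genes, and 7 of 10 ratios were positive (Atf3 turned to −0.51 when classes were taken from clusters), among them those of Fos (0.46), Fosb (0.47) and Jun (0.35). In Sertoli-like cells these members were at −1.49, −1.62 and −1.47. From 2-day to 7-day explants 4 of 10 members (Fos, Fosb, Jun and Junb) were at least 2-fold higher and none was lower, where 3.33% of genes were higher and 3.57% lower. After subtraction of RNA from other cells 7 were higher and 1 lower, and without Ctsl in that estimate 4 were higher and none lower. The median was 0.91, against 0.10 for all genes.

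Stromal-like cells also came from different clusters in culture and in vivo. A cluster led by Tnnt2, Cnn1 and Tbata held 50.2% of the class at 9 dpp and 56.8% at 14 dpp, and one led by Clec3b, S100b and Dlk1 held 49.3% and 39.8%. The sum of the members was 3442 and 3414 CPM in the Tnnt2 cluster and 3910 and 4879 CPM in the Clec3b cluster. In 2-day explants a cluster led by Plcxd3, Igfbp5 and Itgbl1 held 1120 cells with a sum of 4495 CPM, and one led by Cxcl5, Il33 and Ptx3 held 1309 cells with a sum of 2435 CPM. In 7-day explants the Plcxd3 cluster held 651 cells with a sum of 9797 CPM, and a cluster led by C3, Apoe and C4b held 760 cells with a sum of 6100 CPM. The Plcxd3 cluster, present at both culture times, thus had 972 CPM of Fos at 2 days and 2868 CPM at 7 days, and the Cxcl5 cluster had 457 CPM at 2 days.

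Leydig-like cells, the steroid-producing cells between the tubules, numbered 55 to 71 per library, and 9 of 10 members had enough UMIs, all but Atf3. In the 2-day pair none of the 9 was 2-fold higher and 4 (Fos, Fosb, Jun and Jund) were at least 2-fold lower in culture, where 5.74% of the 6252 genes tested were higher and 12.3% lower. The median was −0.79, against −0.08 for all genes. Fos was at 238 CPM (195 to 287) in 2-day explants and 854 (796 to 916) at 9 dpp, which gave −1.84 (−2.14 to −1.55) on the log2 scale. Of the 9 members, 3 (Fosl2, Junb and Ier2) were at least 2-fold higher and none was lower in the 7-day pair, where 7.41% of genes were higher and 8.14% lower, with a median of 0.33 against 0.06. When the class was taken from clusters, 1 member and not 4 was 2-fold lower in the 2-day pair. Fosl2 lay at 0.97 there, just under 2-fold, and 1 or 2 members were 2-fold higher in that pair with the stricter cell filter, TMM factors, 0.1 added, equal weight per cell, clusters or subtraction. Genes of other cells were lower with the members in the 2-day pair: 5 of 5 held-out stromal genes were 2-fold lower (median −1.54), and 4 of 5 held-out Sertoli genes (−1.47). Held-out Sertoli and germ genes together stood at 31.5% of their library level in Leydig-like cells of 2-day explants, 43.7% at 9 dpp, 39.4% in 7-day explants and 29.7% at 14 dpp. The 7-day count of 3 higher became 1 with TMM factors and with the stricter cell filter, and 1 higher and 1 lower after RNA from other cells was subtracted.

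Germ-like cells held little of most members. The levels of Fos were 18.9 CPM at 9 dpp, 13.1 at 14 dpp, 27.7 in 2-day explants and 25 in 7-day explants. That was 3.12% to 7.79% of the library level, while genes that mark other cells and should be absent from germ cells were at 6.31% to 10.8% of theirs, or at 2.12% to 5.06% without Ctsl, one of those genes. Fosb, Jun and Junb were at 1.66% to 6.08% of their library level. Fos in germ-like cells was above the level of those genes without Ctsl in each library, and with Ctsl it was above it at 9 dpp alone (7.59% against 6.31%). Jun likewise lay between both levels in each library. At these levels RNA from other cells and expression in germ-like cells cannot be told apart. Junb was the single member at least 2-fold higher in culture in each pair, and none was lower, where 1.3% and 0.747% of the 14584 genes tested were higher and 3.11% and 2.41% lower. With 10 added to the CPM no member was higher in either pair. With 0.1 added, with doublets kept or with all barcodes, 3 were higher in the 7-day pair, and 0.1 added gave 1 lower in the 2-day pair. After subtraction of RNA from other cells none was higher in either pair, and 2 and 4 were lower, while without Ctsl in that estimate none was higher in the 2-day pair. The members' median was 0.10 for the 2-day pair, with −0.00 over all genes, and 0.35 for the 7-day pair, with −0.01.

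Jund, Fosl2 and Nr4a1 stood above both levels in germ-like cells of each library. Jund was at 171 CPM at 9 dpp, 135 at 14 dpp, 126 in 2-day explants and 85.1 in 7-day explants, or 28.7% to 70.1% of the library level. Fosl2 was at 12.8, 8.04, 13.5 and 6.73 CPM, or 44.8% to 102%, and Nr4a1 at 17.6, 11.3, 17.4 and 9.63 CPM, or 12.5% to 49%. For these 3 genes 7-day explants had the lowest level of the 4 libraries. Against 14 dpp, the next lowest for Fosl2 and Nr4a1, the difference lay within counting error. The log2 ratios were −0.23 (−0.49 to 0.04) and −0.21 (−0.44 to 0.02). Egr1 and Ier2, at 5.11% to 21% and 4.95% to 16.9% of the library level, were above both levels in each library but 7-day explants, where they lay between them.

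Germ-like cells were sorted by stage markers into differentiating spermatogonia, the mitotic cells that commit to meiosis, and leptotene or zygotene spermatocytes, the first cells of meiotic prophase. Jund was at 179 CPM (173 to 187) at 9 dpp, 197 (189 to 205) at 14 dpp, 141 (133 to 150) in 2-day explants and 111 (104 to 119) in 7-day explants in differentiating spermatogonia. In leptotene or zygotene cells it was at 85.3 (75.6 to 95.8), 48.5 (44.3 to 53.1), 49.4 (40.3 to 59.9) and 21.7 (18.6 to 25.1) CPM. Undifferentiated spermatogonia had 231 and 239 CPM of Jund at 9 and 14 dpp, and 96 pachytene cells at 14 dpp had 7.65 CPM. At 14 dpp the intervals of undifferentiated (185 to 304) and differentiating spermatogonia overlapped, and pachytene cells lay below every earlier stage. Fosl2 was at 11 to 15.8 CPM in differentiating spermatogonia and at 1.84 to 6.58 CPM in leptotene or zygotene cells. Nr4a1 was at 10.5 to 19.9 CPM in the former and at 2.03 to 9.27 CPM in the latter. For each of these 3 genes the earlier stage was higher in each of the 4 libraries, with intervals that did not overlap. Fos was lower in the earlier stage at 9 dpp, with 17 against 25.7 CPM, and in 2-day explants, with 22.2 against 41.2 CPM, and its intervals overlapped in the other libraries.

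**Figure D4:**
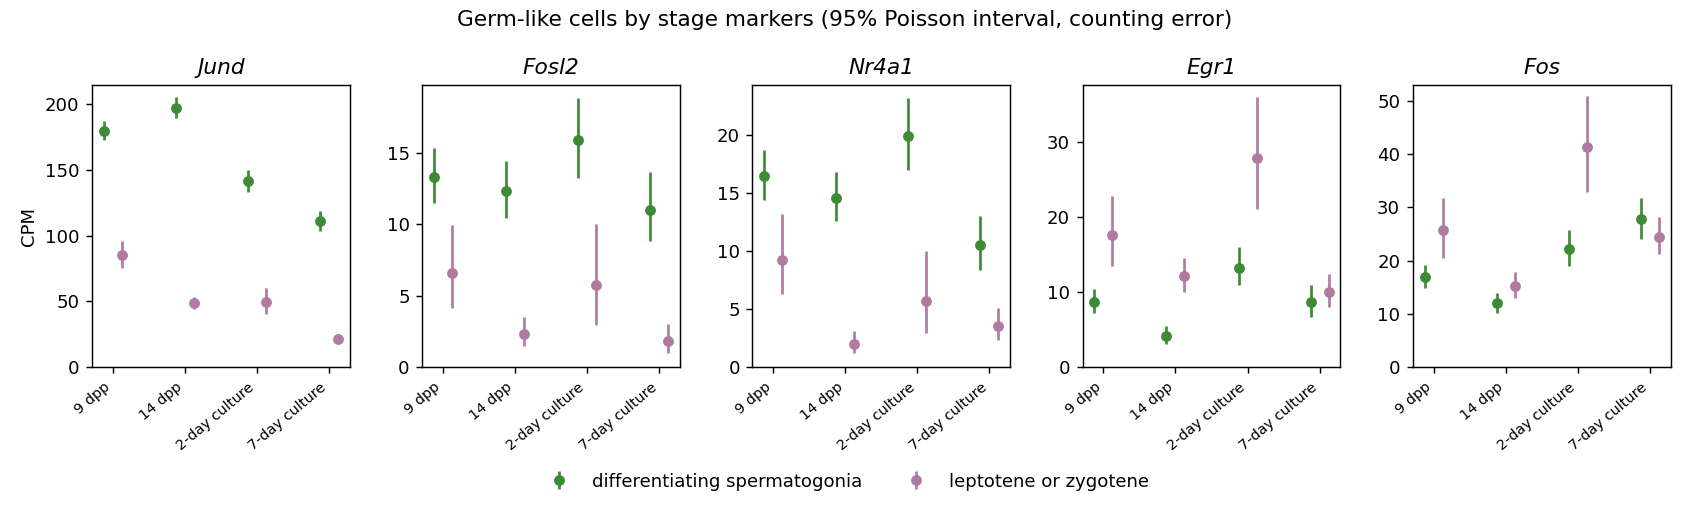
CPM of 5 genes in differentiating spermatogonia and in leptotene or zygotene cells of each library, with 95% Poisson intervals for counting error and linear axes that start at 0. Jund, Fosl2 and Nr4a1 lie higher in the earlier stage in each library, while Egr1 and Fos do not.

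Several members had higher levels in cells called undifferentiated spermatogonia than in differentiating ones. For Egr1 they had 81.2 CPM (59.2 to 109) in 51 cells at 9 dpp and 68.7 CPM (41.4 to 107) in 33 cells at 14 dpp, against 8.76 and 4.23 CPM in differentiating spermatogonia. Explants held 12 and 11 such cells, with 109 (39.9 to 236) and 64.4 CPM (20.9 to 150.3) of Egr1. Nr4a1 was at 32.5 CPM (19.2 to 51.3) against 16.5 CPM at 9 dpp and at 68.7 CPM (41.4 to 107) against 14.6 CPM at 14 dpp. Fos was at 61.3 CPM (42.5 to 85.7) against 17 CPM at 9 dpp, but its intervals overlapped at 14 dpp (12.5 to 57 and 10.2 to 14), and in 7-day explants it was at 25.8 against 27.7 CPM. RNA from other cells was not measured in these cells. A germ-like cluster led by Foxf1, Tcl1 and Egr4 had 54.8 CPM of Egr1 in 548 cells at 9 dpp, 52.8 in 377 cells at 14 dpp, 74.8 in 87 cells of 2-day explants and 51.3 in 156 cells of 7-day explants. Jun in the same cluster was at 12.8, 17.3, 21.6 and 14.3 CPM. Over whole libraries Jun was above Egr1 in each of the 4 libraries, while over all germ-like cells Egr1 was above Jun in each library but 7-day explants (13.9 against 15.8 CPM).

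The members were also counted cell by cell, after each cell was thinned at random to 2000 UMIs so that depth was equal. This left 739 of 1173 Sertoli-like cells in 2-day explants, 519 of 540 in 7-day explants, 864 of 877 at 9 dpp and 808 of 877 at 14 dpp. The median number of members with a UMI was 3 at 9 dpp, 1 at 14 dpp, 4 in 2-day explants and 5 in 7-day explants. At least 5 members were detected in 14% of cells (11.8% to 16.5%) at 9 dpp, 1.73% (0.950% to 2.89%) at 14 dpp, 29.9% (26.6% to 33.3%) in 2-day explants and 64.9% (60.7% to 69%) in 7-day explants. Cells without any member made up 24.1% at 14 dpp and 0.771% to 3.25% of the other libraries. Without thinning, at least 5 members were detected in 82.1%, 37.6%, 48.5% and 90.2% of cells in the order 9 dpp, 14 dpp, 2-day and 7-day culture.

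Stromal-like cells had medians of 4, 4, 3 and 5 members in that order, and 32.7%, 31.2%, 27.9% and 55.8% of cells with at least 5. Germ-like cells had a median of 0 members, and 0% to 0.123% of them had at least 5. The share of cells with a Fos UMI was 32.8% (29.6% to 36.0%) at 9 dpp, 10.9% (8.83% to 13.2%) at 14 dpp, 56% (52.4% to 59.6%) in 2-day explants and 81.5% (77.9% to 84.8%) in 7-day explants in Sertoli-like cells. In germ-like cells at the same depth, the class with the lowest Fos level, it was 3.13% to 5.45%.

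**Figure D5:**
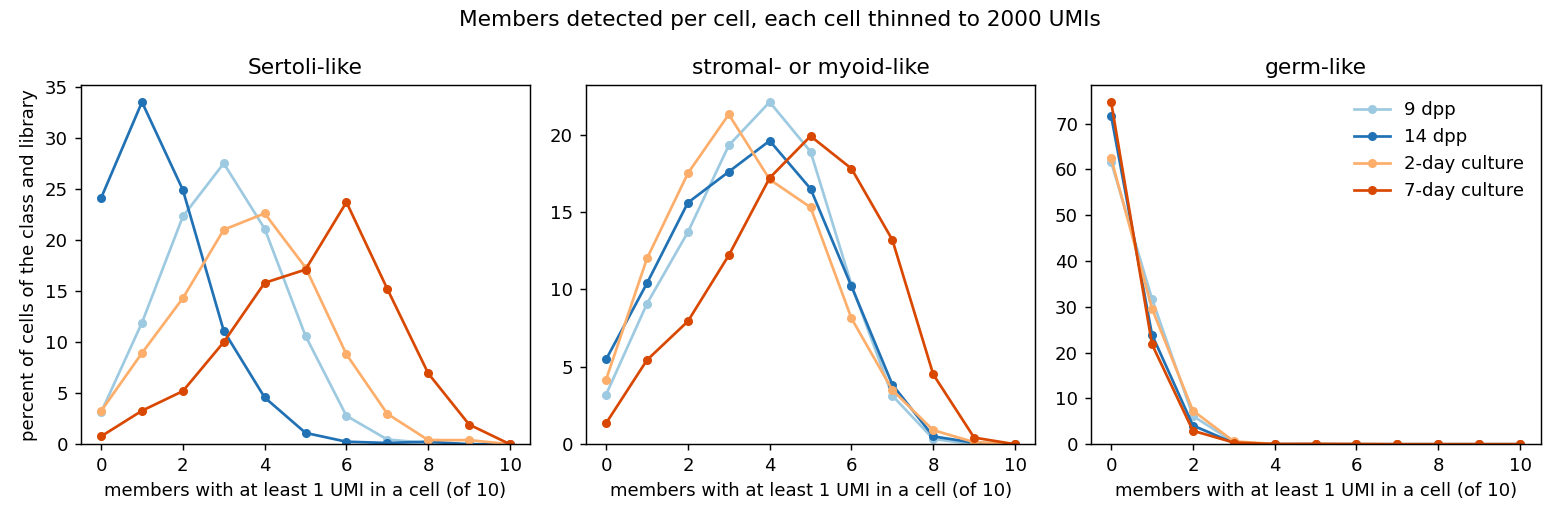
Percent of cells by the number of the 10 genes with at least 1 UMI, after thinning each cell to 2000 UMIs, in 3 classes and 4 libraries. Sertoli-like curves move from a peak at 1 gene at 14 dpp to a peak at 6 in 7-day explants, and stromal-like curves lie closer together.

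Cells with Fos more often had other members. Among Sertoli-like cells of 7-day explants, 88.9% of 423 Fos-positive and 63.5% of 96 Fos-negative cells had Jun, and 70.4% and 41.7% had Egr1. At 14 dpp Jun was found in 38.6% of 88 Fos-positive and 25.3% of 720 Fos-negative Sertoli-like cells. In stromal-like cells of that age it was found in 69% of 671 and 41.9% of 315 cells. The same order held for Jun, Junb and Egr1 in both classes of each library. Cells of 1 library share their tissue and preparation, so these shares describe the cells and were not tested.

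A wider list of 45 other immediate early genes, among them the KLF, DUSP and GADD45 families, was read in the same way. Over all cells 12 of 45 were at least 2-fold higher and none lower in the 7-day pair (3.6% and 2.67% of all genes), and 9 were higher and 2 lower in the 2-day pair (4.19% and 3.41%), with medians of 0.46 and 0.44. In Sertoli-like cells 25 of the 39 with enough UMIs were higher and 1 was lower in the 7-day pair (9.9% and 7.09% of genes), and 17 were higher and 1 lower in the 2-day pair (6.43% and 6.26%). In stromal-like cells 14 of 44 were higher and 5 lower in the 7-day pair (5.26% and 4.31%), and 12 were higher and 6 lower in the 2-day pair (5.99% and 7.06%). In germ-like cells none of 42 was higher or lower in the 7-day pair (0.747% and 2.41%), and 1 was higher and 2 lower in the 2-day pair (1.3% and 3.11%). Leydig-like cells had 4 of 22 higher and 10 lower in the 2-day pair (5.74% and 12.3%), where held-out genes of other cells were lower too, and 4 higher and 4 lower in the 7-day pair (7.41% and 8.14%).

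The 6 genes of this list with the largest ratios shared by both pairs over all cells were all higher in culture. Socs3, an inhibitor of cytokine receptor signalling, was at 76.5 CPM in 2-day explants and 11.4 at 9 dpp, and at 45.4 in 7-day explants and 8.97 at 14 dpp, with log2 ratios of 2.64 and 2.22. Ier3, an early gene of cell survival, had ratios of 2.94 and 1.83, and Nfkbiz, an atypical inhibitor of NF-κB, had 2.15 and 1.60. Bhlhe40, a transcriptional repressor, had 1.88 and 1.79. Maff, a small MAF protein, had 2.27 and 1.67. Zfp36, which promotes decay of AU-rich mRNAs, had 1.41 and 1.68. Over all cells 5 of these 6 genes, all but Zfp36, had higher levels in 2-day than in 7-day explants. Within classes this did not always hold: Maff was at 18.4 and 21.7 CPM in Sertoli-like cells of 2-day and 7-day explants, Ier3 at 150.4 CPM in both, and Bhlhe40 at 32.8 and 38.8 CPM in stromal-like cells. In Sertoli-like cells Socs3 was at 1.33 and 2.03 CPM at 9 and 14 dpp, and at 50.4 and 68.4 CPM in 2-day and 7-day explants.

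The list of 33 AP-1 partners and upstream factors, which holds ATF, CREB, BATF and MAF proteins, MAP kinases and ELK factors, differed little. Over all cells 2 of 33 were at least 2-fold higher and none lower in the 7-day pair, with a median of 0.18, where 3.6% of all genes were higher. In the 2-day pair 3 were higher and none lower, with a median of −0.06, where 4.19% were higher. Elk3, an ETS factor that acts with serum response factor, had log2 ratios of 1.45 and 1.42 in the 2-day and 7-day pairs, and Atf5, a stress response factor, had 1.05 and 1.39. Within stromal-like cells Elk3 was under 2-fold in both pairs, with 30.6 against 15.5 CPM and 26.65 against 14.5 CPM. Atf5 there was at 73.8 against 52.3 CPM and at 152.8 against 70.9 CPM. The kinases that phosphorylate JUN, Mapk8 and Mapk9, were at 55.1 to 63.6 and 45.3 to 52.3 CPM across the 4 libraries. In Sertoli-like cells 3 of 27 genes of this list were higher and 1 was lower in the 7-day pair, near the 9.9% and 7.09% of all genes, with a median of 0.20, where the 10 members had 3.25.

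The genes most like the members were sought over the 16 sums of 4 classes by 4 libraries. The measure was the Pearson correlation with the mean standardised level of the members. Cyr61, a secreted matrix protein, reached 0.970, Nfib 0.961, Cyp2j6 0.960, Btg2 0.953, 4632415L05Rik 0.952 and Rgs3 0.952. Cyr61 and Btg2 are also on the list of other immediate early genes. Among the members themselves, each of which is part of that mean, the values ran from 0.994 for Egr1 to 0.780 for Jund, 0.704 for Atf3 and 0.452 for Fosl2. Sums of 1 library share its depth and preparation, and germ-like sums are low for all of these genes, so the values are descriptions. Cyr61 in Sertoli-like cells was at 400.3 CPM at 9 dpp, 23.3 at 14 dpp, 717 in 2-day explants and 948 in 7-day explants, the same order as for Fos. In stromal-like cells Cyr61 was at 544, 595.4, 381 and 382 CPM, so there 7-day explants lay below in vivo, where Fos had its highest level.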

How the data were processed

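Whole-number UMI counts per gene and cell barcode were deposited by the authors, 1 matrix per library, and per the submitters' processing notes they were made with Cell Ranger 3.0.2 on mm10. The 10 genes, the lists and the tests were chosen with earlier results of these data known. Cells had to have 500 genes or more and no more than 20% mitochondrial UMIs, and doublets called by Scrublet in scanpy 1.11.5 (expected share 6%) were removed. A cell took the class with most marker UMIs (at least 4 UMIs, 2 markers and 70% of marker UMIs), a threshold set after the data were seen. One marker gene, Cst9l, did not enter. Stages of germ-like cells were set in the same way, from at least 3 stage UMIs and 50% of them. Counts were summed per class and library and scaled to CPM with exact Poisson intervals. Log2 ratios are of CPM plus 1, with exact conditional binomial intervals, for genes whose UMIs over the 4 libraries came to 50 or more. All intervals are at 95% and cover counting error only, and shares of cells have exact binomial intervals. A gene was called at 2-fold. With 1 library per group no model was fitted and no p-value is given. Thinning drew 2000 UMIs per cell. Of each list, the genes named are those past 2-fold in the same direction in both culture pairs over all cells, at most 6 higher and 4 lower, ranked by the smaller ratio. Genes most like the members are the 6 with the highest correlation among genes with 200 UMIs or more. Alternatives were TMM factors (edgeR 4.0.16), other constants, filters, thinning depths, Leiden clusters made without the listed genes, equal weight per cell, and subtraction of RNA from other cells. The ratio and interval code was tested on simulated data. Gene positions are from GENCODE M21 on GRCm38.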

Additional observations from a re-analysis of the deposited data

Results flagged for a closer look

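For 12 gene and class combinations the log2 ratio of culture to age-matched testis had opposite signs in the 2 pairs, and each interval for counting error left out 0. Each pair rests on 1 library per group, and the difference between the pairs was not tested.

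Values are given for the 2-day pair first. Over all cells Jund had −0.64 and 0.62, and −0.67 and 1.82 in Sertoli-like cells. Fosb had −0.60 and 0.77 in germ-like cells, where its level was at most 1.26 CPM in any library. In stromal-like cells Fos had −0.54 and 0.71, Fosb −0.53 and 0.81, Jun −0.20 and 0.70, and Ier2 −0.51 and 0.77. All genes of that class had medians of −0.17 and −0.02, so Jun was near the median of all genes in the 2-day pair. The sign of Fos, Fosb, Jun and Ier2 was thus negative in the 2-day pair, while Junb, Fosl2 and Nr4a1 were positive in both pairs of that class. Atf3 was positive in both pairs too, with 0.71 and 0.60 (−0.04 to 1.24), but negative after the subtraction of RNA estimated with Ctsl. In Leydig-like cells Fos had −1.84 and 0.29, Fosb −1.62 and 0.61, Jun −1.13 and 0.32, Egr1 −0.71 and 0.33, and Ier2 −0.79 and 1.08, from 55 to 71 cells per library. After subtraction of RNA from other cells, the 7-day ratios of Fos, Jun and Egr1 in Leydig-like cells were −0.30, −0.23 and −0.21.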

How the results depend on the processing

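No paired analysis was possible because each group had 1 library. The counts of members past 2-fold changed as follows. With at least 1000 genes and at most 10% mitochondrial UMIs per cell, 1 member was higher in Leydig-like cells in the 2-day pair (0 before) and 1 in the 7-day pair (3 before). With all barcodes, and with doublets kept, 3 members were higher in germ-like cells of the 7-day pair (1 before). With TMM factors 0 members were lower in stromal-like cells of the 2-day pair (1 before), and 1 was higher in Leydig-like cells of each pair. With 0.1 added, 1 was lower in germ-like cells of the 2-day pair, 3 were higher in those of the 7-day pair and 1 was higher in Leydig-like cells of the 2-day pair. With 10 added, 1 was higher from 2-day to 7-day explants over all cells (3 before), 0 were higher in germ-like cells of each pair, 5 were lower from 9 to 14 dpp (8 before) and 0 were lower from 2-day to 7-day explants (1 before) in Sertoli-like cells. With each cell weighted equally, 1 and 4 were higher in stromal-like cells of the 2-day and 7-day pairs (0 and 2 before), and 2 were higher in Leydig-like cells of the 2-day pair. With Leiden clusters, 1 was higher and 1 lower (4 before) in Leydig-like cells of the 2-day pair. With RNA from other cells subtracted, germ-like cells had 0 higher and 2 lower in the 2-day pair and 0 higher and 4 lower in the 7-day pair. Stromal-like cells then had 1 lower in the 7-day pair, and 7 higher (4 before) and 1 lower from 2-day to 7-day explants. Leydig-like cells had 1 higher in the 2-day pair, and 1 higher and 1 lower in the 7-day pair. Without Ctsl in that estimate, an alternative added after seeing the data, 0 were higher in germ-like cells of the 2-day pair, and Leydig-like cells had 1 higher in the 2-day pair and 1 higher and 1 lower in the 7-day pair. The cause of these changes was not tested. A higher minimum of marker UMIs, and Sertoli-like cells of at least 5000 UMIs (added after seeing the data), moved no count by over 1.5 times. TMM factors kept the sign of 156 of 158 log2 ratios, Leiden clusters of 115 of 118 and the subtraction of 106 of 118. Weighting cells equally turned Fosb over all cells of the 2-day pair from 0.21 to −0.13. TMM moved the median of all genes from −0.12 to 0.02 in the 2-day pair, from 0.07 to −0.04 between the explants, and from −0.17 to −0.04 in stromal-like cells of the 2-day pair. Shares of cells with a UMI depend on depth: 53 of 64 moved beyond their intervals at 1000 UMIs and 64 of 64 without thinning. Few cells limited the Leydig-like class, and few UMIs limited Atf3 outside Sertoli-like cells and Fosb in germ-like cells.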
